A study of Mus musculus with 3 samples.

Results

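The Hoxb genes Hoxb1 to Hoxb9 form a compact row on mouse chromosome 11, and the deposited peaks over this row are described here. Their members were taken by position: every Suz12 or H3K27me3 peak sharing at least 1 bp with chromosome 11 at 96120000-96235000 of the mouse build mm9, a window of 115 kb given as holding the 9 genes from Hoxb9 to Hoxb1. The mm9 positions of the genes were not checked. The rule uses positions and no peak values, but the window was chosen with earlier results of these data known. The window held 23 of the 1477 Suz12 peaks and 75 of the 25955 H3K27me3 peaks of the series. Small intestinal crypts, the epithelial pits where the gut's stem and progenitor cells reside, were isolated from C57BL/6 mice of the genotype Lgr5Gfp-CreERT2, and the sources used here give no age for the animals. That allele, which every library shares, places a green fluorescent protein and a tamoxifen-inducible Cre under the Lgr5 promoter of the crypt stem cells. Chromatin fixed with formaldehyde was precipitated with an antibody against Suz12 in 1 library and against H3K27me3 in 1 library. The series also has 1 input library without antibody, whose values were not used here.

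Hox genes encode homeodomain transcription factors that give cells their position along the head-to-tail axis of the embryo, and their order on the chromosome follows that of their expression domains. Genes at the Hoxb1 end act furthest to the front of the embryo and those at the Hoxb9 end further back. Hoxb1, Hoxb2 and Hoxb3 pattern the embryonic hindbrain, Hoxb5 takes part in lung and enteric neuron development, and Hoxb6 to Hoxb9 help to shape the thoracic vertebrae and ribs. Polycomb repressive complex 2 (PRC2), of which Suz12 is a core subunit, trimethylates histone H3 at lysine 27. Hox clusters are classical targets of PRC2, which keeps them silent in cells where they are not in use, and mammalian PRC2 is found mostly at DNA rich in CpG dinucleotides.

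RefSeq's table of the build GRCm38.p6 placed all 9 members on chromosome 11, in the order Hoxb9, Hoxb8, Hoxb7, Hoxb6, Hoxb5, Hoxb4, Hoxb3, Hoxb2 and Hoxb1. Hoxb13 is the nearest other Hox gene beyond Hoxb9. Within the row, the microRNA gene Mir10a stands between Hoxb5 and Hoxb4, and the long noncoding RNA genes Hoxb5os and Hoxb3os also lie there. An mm9 annotation was not used here, so the Hoxb9 end is taken to be the low-coordinate end from this order, and no single peak is given to a gene, exon, intron or promoter. Positions are given as mm9 coordinates, counted from 1, and as distances from the Hoxb9 end of the window, taken as the lowest coordinate.

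Promoter sequences of only 3 of the 9 members, Hoxb8, Hoxb4 and Hoxb1, were in the RefSeq table, and all 3 are shown. They come from near the Hoxb9 end, from the middle and from the Hoxb1 end of the gene order. Each runs from 250 bases before to 50 bases after the gene's start, 5′ to 3′ on the + strand, at chr11:96281655-96281954 for Hoxb8, chr11:96318017-96318316 for Hoxb4 and chr11:96365508-96365807 for Hoxb1. These coordinates belong to GRCm38.p6 and cannot be set against the mm9 peaks. Capitals mark the CpG dinucleotides, the motif CG, which reads the same on both strands.
Hoxb8: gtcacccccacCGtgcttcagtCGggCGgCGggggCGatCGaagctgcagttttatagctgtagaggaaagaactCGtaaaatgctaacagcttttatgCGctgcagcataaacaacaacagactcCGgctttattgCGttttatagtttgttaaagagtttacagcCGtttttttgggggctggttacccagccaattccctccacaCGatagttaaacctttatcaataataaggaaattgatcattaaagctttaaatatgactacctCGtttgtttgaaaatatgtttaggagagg
Hoxb4: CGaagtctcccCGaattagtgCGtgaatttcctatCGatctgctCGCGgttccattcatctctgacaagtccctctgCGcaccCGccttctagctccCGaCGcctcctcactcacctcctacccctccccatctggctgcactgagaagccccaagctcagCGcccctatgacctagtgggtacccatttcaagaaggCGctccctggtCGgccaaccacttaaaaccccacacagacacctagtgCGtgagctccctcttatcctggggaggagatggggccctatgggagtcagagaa
Hoxb1: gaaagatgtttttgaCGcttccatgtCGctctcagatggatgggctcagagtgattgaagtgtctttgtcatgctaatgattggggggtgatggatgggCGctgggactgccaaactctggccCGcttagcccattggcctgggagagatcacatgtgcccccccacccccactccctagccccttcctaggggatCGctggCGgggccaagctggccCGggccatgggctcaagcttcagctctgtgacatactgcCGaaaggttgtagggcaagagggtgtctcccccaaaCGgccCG

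The promoters differed in base composition. Hoxb8, a gene expressed towards the rear of the axis, had 13 CpG in 300 bases at a GC content of 42.3%, which is 0.970 of the CpG number its base content alone would give. Of the 32851 promoters in the table, 7.66% had a ratio as high or higher. By CpG number Hoxb8 stood out less, since 37.9% of promoters had as many or more. Its GC content was low, with 85.1% of promoters at or above it. Hoxb4, best known for its part in blood stem cell expansion, had 14 CpG, a GC content of 58.0% and a ratio of 0.593, matched or exceeded by 36.3% of promoters. Hoxb1, which specifies a segment of the embryonic hindbrain, had 10 CpG, a GC content of 59.3% and a ratio of 0.380, with 50.4% of promoters at or above it. The median promoter had 7 CpG and a ratio of 0.384. At least 10 CpG, the number in Hoxb1, were found in 43.5% of all promoters. These are properties of the reference sequence and say nothing of binding.

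Suz12 peaks were concentrated at the Hoxb9 end of the gene row. Of the 23 peaks, 20 (87.0%) had their centre in the first 45 kb of the window and 3 lay in the remaining 70 kb. The limit of 45 kb was set after the Suz12 peaks had been seen and falls just past the last peak before a long stretch without any. The part up to the midpoint of the window also held 20 of them. H3K27me3 peaks were spread over the whole window, with 32 of 75 in the first 45 kb, or 42.7%. Each antibody had 1 library, so no value has a replicate error, no p-value was made, and the exact 95% binomial intervals given below cover counting error only. Crypt chromatin was pooled over cells, so fewer cells with a peak and less signal per cell cannot be told apart.

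**Figure D1:**
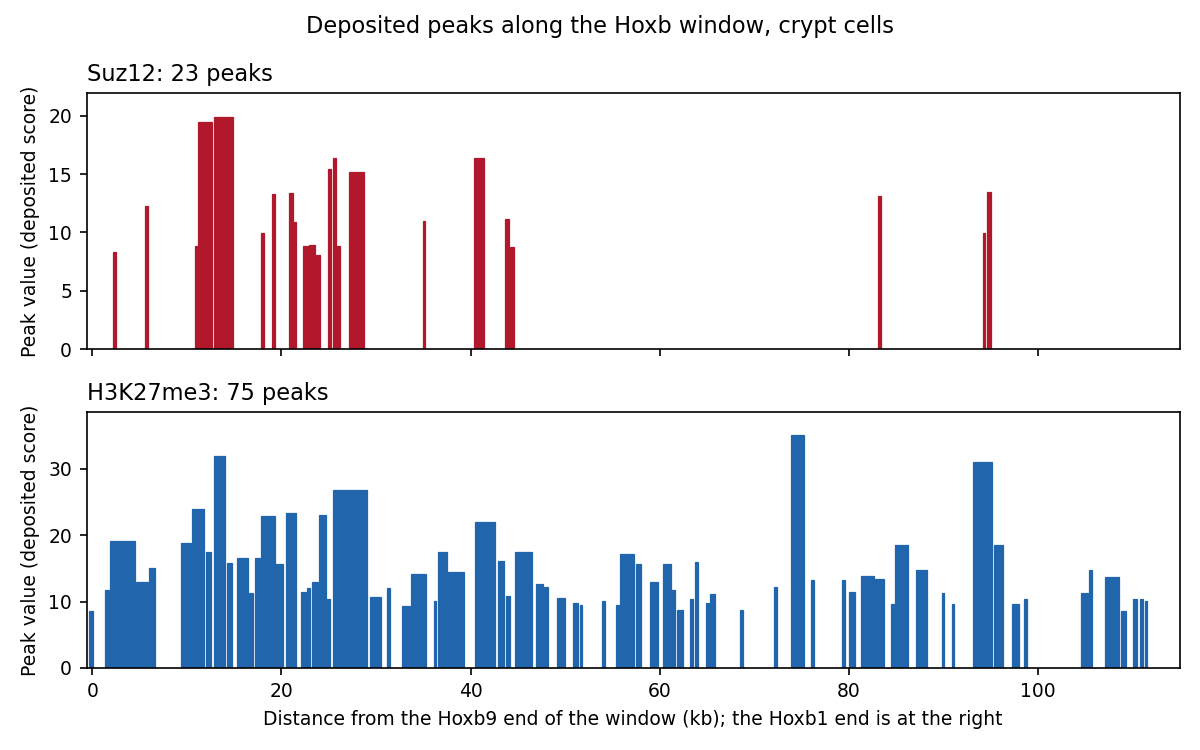
Suz12 peaks (upper panel, 23) and H3K27me3 peaks (lower panel, 75) along the 115 kb window, drawn at their true width with the deposited peak value as height, against distance in kb from the Hoxb9 end. Suz12 peaks crowd the left part and leave a stretch of 38.5 kb empty, while H3K27me3 peaks continue to the Hoxb1 end.

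From the Hoxb9 end, the first Suz12 peaks were narrow. The peak at 96122184-96122484 had a value of 8.31 and that at 96125538-96125835 a value of 12.29. The value is the score that the authors' peak caller gave each peak, the sources used here do not state its scale, and both lists begin at 8. After a stretch of 5.02 kb came a group of 3 peaks between 96130856 and 96134879. It held the strongest Suz12 peak of the window, at 96132862-96134879 with a value of 19.91 and a width of 2018 bp, and the one ranked next, at 96131219-96132630 with a value of 19.5 and a width of 1412 bp. They reached from 11.2 to 14.9 kb from the Hoxb9 end. The weakest of the group, at 96130856-96131162, had a value of 8.81.

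Between 17.8 and 28.7 kb from the Hoxb9 end, 11 Suz12 peaks followed each other closely, from 96137847 to 96148746. The last of them, at 96147185-96148746, was the window's peak ranked next in width, with 1562 bp and a value of 15.16. The 275 bp peak at 96145448-96145722 reached 16.42, rank 3 in the window, and the 264 bp peak at 96144969-96145232 reached 15.41. A run of 3 peaks from 96142247 to 96144121 was wider, at 625, 616 and 458 bp, and low, with values of 8.86, 8.91 and 8.05. The other members of this series had values of 8.81 to 13.37. Width and value therefore did not go together in every peak here.

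Towards the middle of the row Suz12 peaks thinned out. A peak of 271 bp at 96154948-96155218 had a value of 11.01. It was bounded by stretches of 6.20 and 5.19 kb without Suz12, over which 63.9% and 55.3% of the sequence lay in H3K27me3 peaks. The peak at 96160405-96161369, 965 bp wide with a value of 16.35, was followed by those at 96163606-96164045 (value 11.14) and 96164169-96164642 (value 8.75).

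No Suz12 peak was listed over the next 38.5 kb, from 96164643 to 96203100. Peak names carry running numbers, which rose along chromosome 11 at each of its 134 steps from one Suz12 peak to the next. The peaks on either side of this stretch are numbered 252 and 253, so no numbered peak is missing between them. The window lacks 1 Suz12 number, and it falls in the 5.02 kb stretch from 96125836 to 96130855 near the Hoxb9 end. Sites too weak to have been numbered cannot be seen in the list.

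Beyond that stretch, 3 Suz12 peaks remained towards the Hoxb1 end. The peak at 96203101-96203405 had a value of 13.16, and the pair at 96214204-96214421 and 96214631-96215062 had values of 9.99 and 13.45. They were separated by 10.8 kb. From 96215063 to the end of the window, 19.9 kb, no Suz12 peak was listed. The next Suz12 peak on the chromosome lay 664 kb past the last one of the window.

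In bins of 5 kb, Suz12 peaks touched 12 of the 23 bins, including all of the first 9 and 3 of the last 14. The highest share of a bin inside Suz12 peaks was 74.7%, at 10 to 15 kb from the Hoxb9 end. It was 48.7% at 25 to 30 kb, 46.3% at 20 to 25 kb and 37.6% at 40 to 45 kb. Past 45 kb, the share did not exceed 11.7%, at 90 to 95 kb. The empty bins ran from 45 to 80 kb and from 100 to 115 kb, with 1 more at 85 to 90 kb.

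H3K27me3 covered part of each of the 23 bins. In the first 9 bins the covered share ran between 44.4% and 88.4%, with a median of 71.7%, and in the last 14 between 7.72% and 70.3%, with a median of 42.0%. The bin with the most, 88.4%, lay 25 to 30 kb from the Hoxb9 end, and that with the least, 7.72%, lay 100 to 105 kb from it. The bin at 45 to 50 kb, which held no Suz12 peak, was covered to 70.3%. That at 80 to 85 kb was covered to 67.1% with a single Suz12 peak of 305 bp. The ranges of the first 9 and the last 14 bins overlapped.

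**Figure D2:**
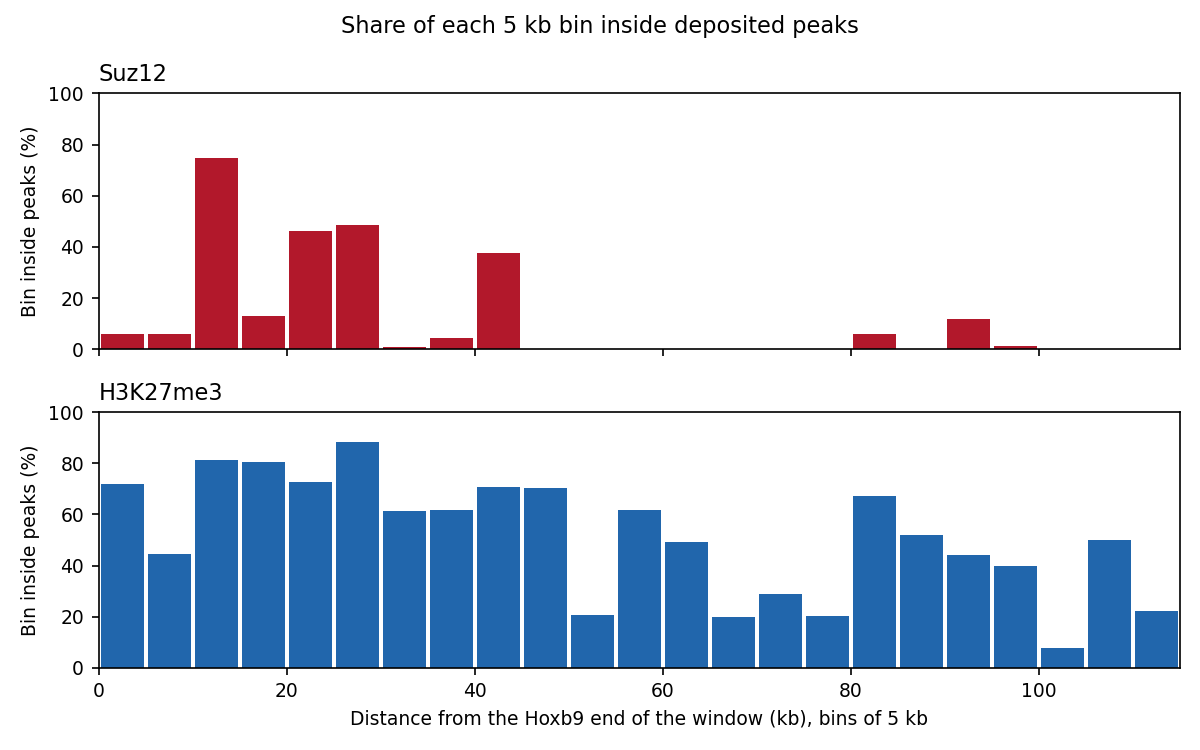
Share of each 5 kb bin of the window lying inside Suz12 peaks (upper panel) and H3K27me3 peaks (lower panel), against distance in kb from the Hoxb9 end. Suz12 reaches 74.7% at 10 to 15 kb and is absent from 11 of 23 bins, whereas no bin lacks H3K27me3.

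The window was also divided at its longest Suz12-free stretch, a division chosen after the Suz12 peaks had been seen. H3K27me3 peaks took up 70.2% of the 44.6 kb before it, 41.8% of the 38.5 kb within it and 37.3% of the 31.9 kb after it. By centre these parts held 32, 25 and 18 H3K27me3 peaks, or 7.17, 6.50 and 5.64 per 10 kb. The median widths were 701.5, 464 and 443 bp. Among listed peaks, number per length thus differed less along the row than width did. Median values were 15.34, 12.15 and 11.24, and the highest values of the 3 parts were 31.88, 35.06 and 30.96. All these figures count listed peaks only. More running numbers of H3K27me3 were missing within the Suz12-free stretch, and after it, than before it. Gaps that lacked 2 numbers lay within it, at 96171827-96173920, and after it, at 96211161-96213145 and 96218808-96224553. How far missing peaks account for the fall in number and covered share towards the Hoxb1 end was not tested.

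The strongest H3K27me3 peak of the window lay inside the Suz12-free stretch. It ran from 96193875 to 96195278, 73.9 to 75.3 kb from the Hoxb9 end, with a value of 35.06, and 99.8% of the H3K27me3 list had a lower value. The nearest Suz12 peak was 7822 bp away. The peak ranked next, at 96132848-96134028 with a value of 31.88, shared 98.8% of its 1181 bp with Suz12 peaks and coincided with the strongest Suz12 peak of the window. Rank 3 was the peak at 96213146-96215123 with a value of 30.96. It held the Suz12 pair near the Hoxb1 end, which covered 32.9% of it. The peak at 96145456-96149099, with a value of 26.77 and the largest width in the window at 3644 bp, and the peak at 96130515-96131802, with a value of 23.95, both overlapped Suz12. Of the 5 strongest H3K27me3 peaks, 4 therefore overlapped Suz12 and 1 did not, against 4.71% of all peaks in the H3K27me3 list. Outside the window, too, H3K27me3 peaks with Suz12 had higher values, with a median of 20.5 against 11.1 without. The count is therefore not read as particular to the Hoxb genes.

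After the 3644 bp peak, the widest H3K27me3 peaks were those at 96121885-96124475 (2591 bp, value 19.11), 96160446-96162634 (2189 bp, value 22.06), 96213146-96215123 (1978 bp) and 96164709-96166527 (1819 bp, value 17.5). The last of these began 66 bp beyond the final Suz12 peak of the Hoxb9 side, and the others overlapped Suz12. Of the whole H3K27me3 list, 4.71% did so. Outside the window, peaks with Suz12 were also wider, with a median of 1335 bp against 366 bp without.

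Stretches without H3K27me3 were short. The longest, 5.75 kb from 96218808 to 96224553, lay near the Hoxb1 end, and 2 numbered peaks are missing from the list there. The next ran for 3.43 kb up to the end of the window, from 96231568 to 96235000, and 3.32 kb from 96188818 to 96192135 were free inside the Suz12-free stretch. Others measured 2.87 kb, from 96196363 to 96199232, and 2.73 kb, from 96126665 to 96129390. The list also lacks 1 numbered peak in the 3.32 kb stretch and 1 in the 2.73 kb stretch. Over the whole window, the list held 75 of 91 running numbers, so 16 numbered H3K27me3 peaks are missing from it. The sources used here do not say what they were. None of these 5 stretches contained a Suz12 peak. With 96.3% of the whole Suz12 list overlapping H3K27me3, that was nearly fixed by the choice of stretch.

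Suz12 peaks of the Hoxb window nearly all coincided with the mark. An H3K27me3 peak overlapped 22 of 23 of them, or 95.7% (78.1 to 99.9). The whole Suz12 list had 96.3%, so the Hoxb share was near the background and is no result about these genes. The single exception was the peak at 96164169-96164642, the last before the Suz12-free stretch, which lay 14 bp from the nearest H3K27me3 peak. Of the 23 peaks, 12 lay entirely within H3K27me3 peaks, against 932 of the 1477 in the whole list. H3K27me3 peaks took in 87.2% of the sequence of the 23 and 90.0% of that of the whole list. Neither share was above the background.

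In the other direction, 19 of the 75 H3K27me3 peaks of the window overlapped Suz12, or 25.3% (16.0 to 36.7), against 4.71% of the whole H3K27me3 list. The rest of the list without the window had 4.65% (4.40 to 4.91), and its interval lay below that of the window. By part, the 19 peaks were 17 of 32 before the Suz12-free stretch, 0 of 25 within it and 2 of 18 after it. The 0 was fixed by the division, which was drawn from the Suz12 peaks, and the other counts follow where those peaks lie. Neighbouring peaks share their surroundings, and the window was not chosen blind to these data, so the intervals do not test a difference.

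H3K27me3 peaks of the window that overlapped Suz12 were wider and had higher values than those that did not. Their median width was 1099 bp (range 320 to 3644), and that of the 56 without Suz12 was 489.5 bp (210 to 1819). Median values were 17.5 (10.37 to 31.88) with Suz12 and 11.69 (8.60 to 35.06) without. The ranges overlapped for both measures. In the rest of the list the medians were 1335 bp and 20.5 with Suz12, and 366 bp and 11.1 without. Wide peaks have more room for an overlap, and the part of width in the difference was not tested.

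**Figure D3:**
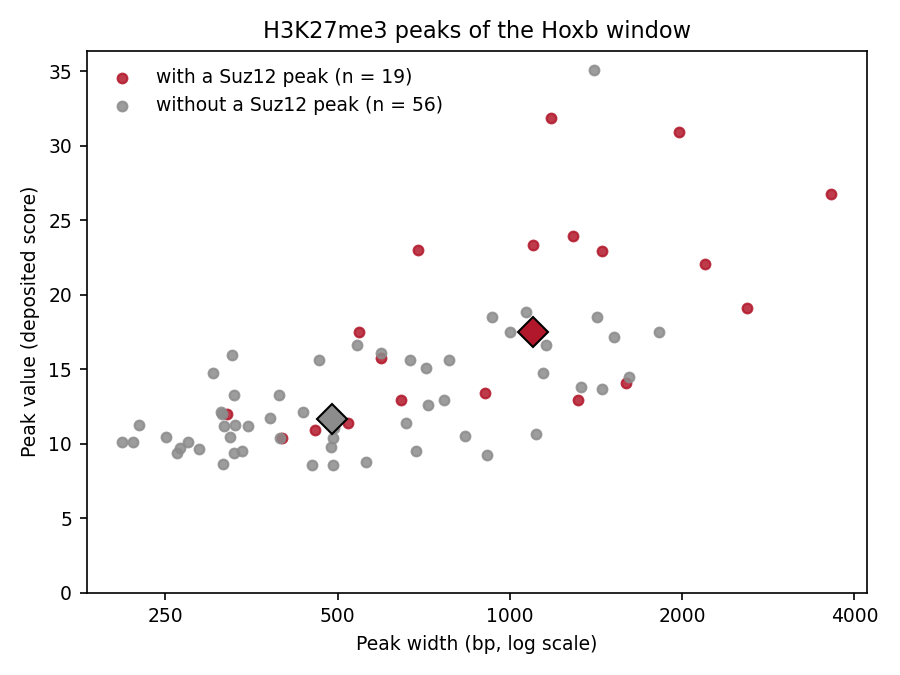
Width (bp, log scale) and deposited value of the 75 H3K27me3 peaks of the window, with a Suz12 peak (red, n = 19) and without (grey, n = 56); diamonds mark the medians. Red points sit towards the upper right, with medians of 1099 bp and 17.5, and the highest point, 35.06, is grey.

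Compared with the remainder of the lists, the Hoxb window had wider H3K27me3 peaks, by median, while no clear difference in width was seen for Suz12 peaks. The H3K27me3 peaks had a median width of 560 bp (quartiles 335.5 and 1104) in the window and 379 bp (261 and 639) elsewhere, with median values of 12.91 and 11.21. For Suz12 the median width was 365 bp (299.5 and 545) in the window and 421.5 bp (274 and 794.5) elsewhere, with median values of 11.14 and 11.69. The strongest Suz12 peak of the window, at 19.91, stood above 87.7% of the Suz12 list, whose highest value was 72.5. Suz12 peaks covered 11.2% of the window and 0.0829% of chromosome 11, and H3K27me3 peaks covered 51.6% and 1.12%.

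When H3K27me3 peaks at most 5000 bp apart were joined, the window fell into 2 domains. The main domain ran from 96106630 to 96218807, 112 kb with 80 H3K27me3 peaks and all 23 Suz12 peaks. It began before the Hoxb9 end of the window and ended 16.2 kb before its Hoxb1 end. The second, from 96224554 to 96245295, was 20.7 kb long with 12 H3K27me3 peaks and no Suz12 peak, and its highest value was 14.74. The Hoxb1 end of the window therefore lay in a separate, weaker domain at this joining distance. The gap between the 2 domains, 5.75 kb, was little longer than that distance. Because 2 numbered H3K27me3 peaks are missing from the list in this gap, the break may not be real.

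The main Hoxb domain was set beside the 3 other domains with the most H3K27me3 peaks and, added after the data had been seen, the 2 with the most Suz12 peaks among the rest. The longest stretch of the Hoxb domain without Suz12, 38.5 kb or 34.3% of its length, lay between Suz12 peaks. Counting the ends of a domain as well, stretches of a similar or larger share were found elsewhere. On chromosome 15 at 102733526-102905392, the last 58.4 kb (34.0%) held no Suz12 peak, and on chromosome 14 at 122836734-122893973 the first 24.7 kb (43.2%) held none. The longest such stretch was 30.0 kb (16.5%), at the start, on chromosome 6 at 52094999-52276321 and 21.0 kb (18.8%), between Suz12 peaks, on chromosome 2 at 74481475-74592764. H3K27me3 covered 41.8% of the stretch in the Hoxb domain, 49.6% of that on chromosome 15, 43.7% of that on chromosome 14, 54.9% of that on chromosome 6 and 43.0% of that on chromosome 2. Between neighbouring Suz12 peaks alone, the longest distance was 38.5 kb in the Hoxb domain, 21.0 kb on chromosome 2, 18.3 kb on chromosome 6, 17.3 kb on chromosome 15 and 1.89 kb on chromosome 14. On chromosome 7, the domain from 52851186 to 52956119 had no Suz12 peak among its 81 H3K27me3 peaks. A long stretch of H3K27me3 without Suz12 was thus also present in other domains. Each domain is a single region of the same 2 libraries, so the differences could not be tested.

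Suz12 peaks of the Hoxb domain had lower top values than those of the 4 other domains that held any. Its highest Suz12 value was 19.91 and its widest Suz12 peak 2018 bp. The domain on chromosome 2 reached a value of 58.1 and a width of 4037 bp, that on chromosome 6 reached 39.7 and 7055 bp, and that on chromosome 14 reached 35.3 and 3602 bp. On chromosome 15 the highest value was 25.6 and the widest peak, at 1275 bp, was narrower than in the Hoxb domain. Median Suz12 values did not all follow this order. They were 11.14 in the Hoxb domain and 10.86, 11.5, 13.3 and 13.5 on chromosomes 15, 14, 6 and 2. In the same order the domains held 23, 25, 23, 51 and 36 Suz12 peaks. More peaks leave more room for a high maximum, and the part of peak number in the difference was not tested. The chromosome 14 domain held 23 Suz12 peaks, as did the Hoxb domain, and reached 35.3 against 19.91. Suz12 covered 11.4% of the Hoxb domain, 7.54% of that on chromosome 15, 25.8% of that on chromosome 14, 26.2% of that on chromosome 2 and 31.0% of that on chromosome 6. The Hoxa, Hoxc and Hoxd clusters lie on chromosomes 6, 15 and 2, but their mm9 positions were not checked.

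**Figure D4:**
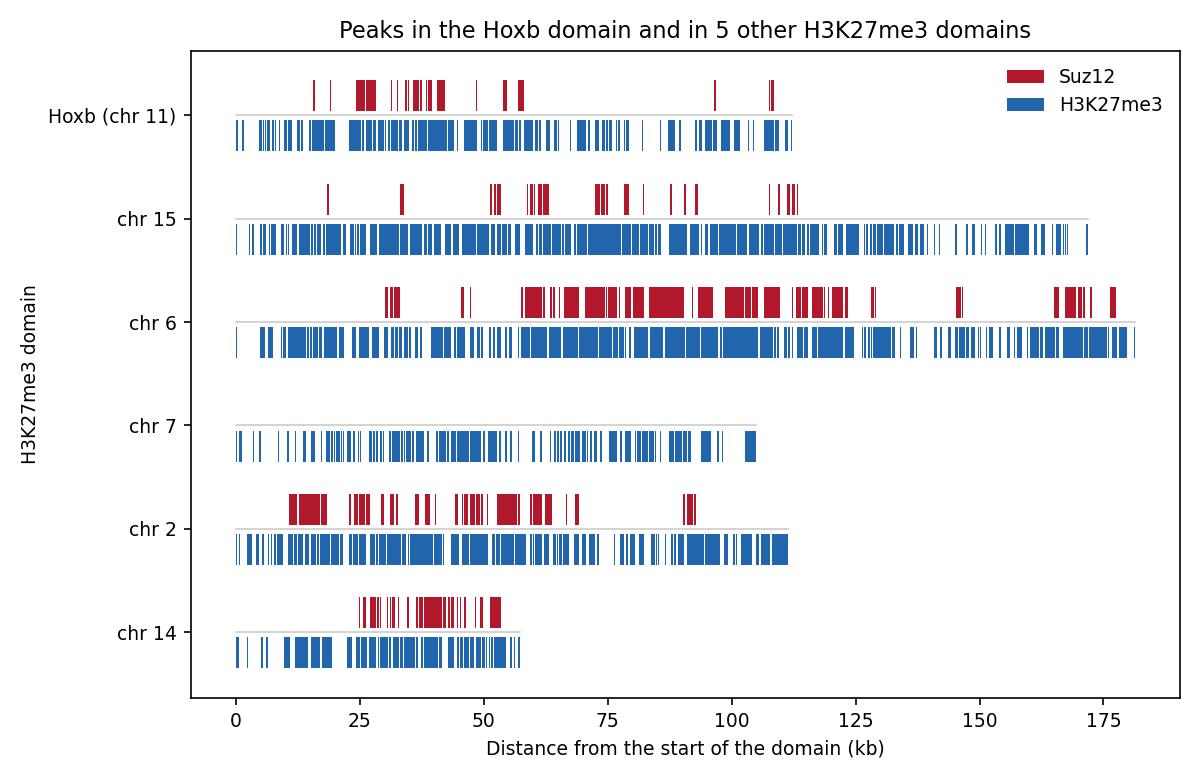
Suz12 peaks (red) and H3K27me3 peaks (blue) at their true width in the main Hoxb domain and in 5 other H3K27me3 domains, against distance in kb from the start of each domain. The Hoxb domain has a Suz12-free stretch of 38.5 kb in its right part, the chromosome 15 domain one of 58.4 kb at its end, and the chromosome 7 domain has no Suz12 peak.

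The flanks of the window differed from each other. The 100 kb on the Hoxb9 side, towards Hoxb13, held 16 Suz12 peaks with values of 8.42 to 24.56 between 96034448 and 96066630, and 56 H3K27me3 peaks that covered 44.0% of it. From the last of these Suz12 peaks to the first one of the window, 55.6 kb were free of Suz12. The 100 kb beyond the Hoxb1 end held no Suz12 peak and 24 H3K27me3 peaks, with values of 8.58 to 18.05, that covered 8.71%. The highest Suz12 and H3K27me3 values of the Hoxb13 side, 24.56 and 38.07, were above those inside the window, 19.91 and 35.06.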

How the data were processed

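Crypt chromatin was measured by ChIP-seq in 1 Suz12 and 1 H3K27me3 library. Bowtie, MACS2 and the build mm9 appear in the submitters' processing notes, with neither versions nor settings. For each antibody the authors deposited 1 peak list, with a score per peak of unstated scale. The sources used here do not say whether the input served as control for peak calling. The lists begin at a score of 8 and hold no read counts, so depth is unknown and no limit for undetected peaks is given.

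Peaks were taken by overlap of at least 1 bp with the window, and a peak was counted in the 5 kb bin of its centre. Shares have exact binomial (Clopper-Pearson) 95% intervals, and the 95% intervals of median widths were taken from the ranked widths. Peaks are not replicates, so no test was run. Named are, within the window, the 5 highest and 5 widest peaks of each list and the 5 longest stretches without a peak; other Suz12 peaks were chosen after their values were seen. Alternatives were the upper 50% of a list by value, other overlap rules, bins and joining distances, and a window narrowed by 10 kb at each end. Peaks by gene had been planned and were not run, since the gene table follows GRCm38. The members and lists were chosen with earlier results of these data known. Overlap functions were tested on simulated data: 600 of 600 peaks placed on H3K27me3 peaks and 0 of 400 placed off them were called overlapping. Python 3.11.15, numpy 2.4.6, pandas 2.3.3, scipy 1.17.1 and matplotlib 3.10.9 were used, with mm9 lengths from GenomeInfoDb 1.38.1. Sequences are RefSeq's.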

Additional observations from a re-analysis of the deposited data

How the results depend on the processing

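There were no replicates to leave out. No paired analysis was possible because there was 1 library per antibody. Of 34 alternatives over 16 results, 18 stayed within the result's 95% interval (counts and lengths: within 1.5 times) and 16 moved. With the upper 50% of each list by value, the window held 11 Suz12 peaks that covered 7.14%, and the median value was 15.16 for Suz12 and 15.07 for H3K27me3. These medians rise by construction, since low values are removed. Of those 11 Suz12 peaks, 81.8% lay in the first 45 kb, and the longest stretch between them was 41.7 kb. All 23 Suz12 peaks (100%) had an H3K27me3 peak within 1000 bp. Suz12 was found at 14.7% of the H3K27me3 peaks when Suz12 had to cover at least 50% of the peak, and at 42.7% within 1000 bp. Shares of the whole lists under these other overlap rules are not given here. The 100%, 14.7% and 42.7% therefore have no background and are no result about these genes. Dividing the window at its midpoint in place of 45 kb, an alternative added after seeing the data, put 54.7% of H3K27me3 peaks on the Hoxb9 side, a longer stretch by construction, and again 87.0% of Suz12 peaks. The Hoxb domain depended most on the joining distance: 22.1 kb with 19 H3K27me3 and 14 Suz12 peaks at 1000 bp, 231 kb with 137 and 39 at 10000 bp, where it takes in the Suz12 peaks of the Hoxb13 side. With the upper 50% of H3K27me3 peaks it was 56.0 kb with 33 H3K27me3 and 20 Suz12 peaks. The unknown depth and the lowest value of 8 limit what an absent peak can show.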
